A study of Arabidopsis thaliana with 9 samples.

Results

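The 6 genes described here belong to ER-associated degradation (ERAD) and were followed across seedlings with more, less or unaltered signal peptide peptidase of *A. thaliana* (AtSPP). They are the derlins DER1 (AT4G29330), DER2.1 (AT4G21810) and DER2.2 (AT4G04860), the lectin OS9 (AT5G35080), the ubiquitin-conjugating enzyme UBC32 (AT3G17000), and EBS7 (AT4G29960), which the gene table used here lists by its locus alone. They were chosen by locus, and each is read from 1 probe set of the Affymetrix ATH1 array. These are 6 of 22746 probe sets, chosen with earlier results of these data known, so that their counts below are a description. DER2.1 and UBC32 rose in the AtSPP knockdown lines against Col-0, and the other 4 genes did not pass in that comparison. Of all probe sets, 6.56% were called higher there, and 13.5% in either direction. None of the 6 genes passed in the AtSPP-overexpressed lines, where 0.299% of all probe sets were called higher and 0.545% in either direction. Both increases depended on the processing: that of DER2.1 kept its direction under every alternative tried, whereas that of UBC32 turned negative if arrays were quantile normalized or centred on their medians. Centring on medians called 21996 of the 22746 probe sets lower in the knockdown lines. The sign of UBC32 under it followed from that shift.

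ERAD removes proteins that fail to fold in the endoplasmic reticulum (ER). Lectins and chaperones pick out such proteins, a membrane complex built around a ubiquitin ligase passes them through the ER membrane and tags them with ubiquitin, and the proteasome then degrades them in the cytosol. Signal peptide peptidase cleaves the signal peptides left in the ER membrane, and in human cells and in rice it binds derlins, so that the ERAD genes bear on the question of what a change in AtSPP does to the ER.

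The experiment had 3 groups of 3 arrays, all of whole seedlings of the Col-0 strain at 7 days on agar plates, with the RNA of pooled plants on each array. The AtSPP-overexpressed group carried the full-length AtSPP behind the CaMV 35S promoter, which is active in most plant tissues, and the labels name the vector as pZH2B, pZH3B or pZH4B for replicates 1, 2 and 3, where the methods name pZH2B alone. The AtSPP knockdown group carried an RNAi construct against AtSPP, made with a longer fragment holding 1 of the active-site aspartates in replicate 1 and with a shorter fragment holding both in replicates 2 and 3. The Col-0 group had no construct. The labels speak of 3 lines of each transgenic kind but name no line for an array. By its fragment, knockdown replicate 1 came from another line than replicates 2 and 3. Nothing says that the Col-0 samples were more than separate pools of plants. A p-value here thus speaks of the variation among these arrays, part of which may be technical. In whole seedlings, fewer cells of a type and less RNA per cell cannot be told apart.

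The values had been normalized by the authors with DFW (distribution free weighted), which pulls the arrays together wherever they differ little. Over the 9 arrays the median probe set had an SD of 5.38 millionths of a DFW unit. A difference in these units is not a fold change, so values of the 6 genes are given below as the distance of an array from the Col-0 mean in millionths of a DFW unit, and differences also in residual SDs. A residual SD is the spread between replicates of the probe set in the fit, drawn by limma towards that of all probe sets. AtSPP itself checks the labels: its signal was 8.16 to 8.23 in the AtSPP-overexpressed arrays, 7.92 to 7.94 in the knockdown arrays and 7.96 to 7.98 in Col-0, so the 3 groups did not overlap. The increase of AtSPP passed in limma (adjusted p = 0.014), which it did not without Col-0 replicate 1 (0.0712), without Col-0 replicate 2 (0.081), with the 6 arrays of the comparison alone (0.106) or under a replicate block (0.0568), and the decrease did not pass (adjusted p = 0.125). The decrease did pass after centring on array medians (adjusted p = 0.00443), with the 6 arrays alone (0.0303), without AtSPP-overexpressed replicate 2 (0.0379) and by rank products. Of the leaf genes listed as tissue markers 2 of 4 were measured. LHCB4.2, a protein of the light-harvesting antenna, was 9824 millionths higher in the knockdown lines than in Col-0 (adjusted p = 0.00144), and RCA, the activase of Rubisco, differed by 0.113 millionths (adjusted p = 0.992). In the AtSPP-overexpressed lines LHCB4.2 differed from Col-0 by -1699 millionths (adjusted p = 0.455) and RCA by 5.57 (adjusted p = 0.696). Rank products called LHCB4.2 lower there, with an estimated share of false calls of 0.0114. RCA was very bright, with 0.0615% of all probe sets brighter. The summed signal of LHCB4.2 and RCA was 22.58 in all knockdown arrays and 22.57 in all others. The 2 measured root markers of 5, AT5G64100 and EXPA7, did not pass in the knockdown lines (adjusted p = 0.107 and 0.959) or in the AtSPP-overexpressed lines (0.238 and 0.965), with a sum of 15.02 in every array, and none of the 3 seed markers was measured. AT5G64100 is also a candidate substrate that the study picked with the help of these arrays, so it is no independent tissue check: its AtSPP-overexpressed arrays lay above all Col-0 arrays, with a difference of 367 millionths and an estimated share of false calls of 0.0428 by rank products. The part of the leaf and root signals in the results below was not tested.

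OS9 recognizes trimmed sugar chains on misfolded glycoproteins and hands them to the ligase complex. Its signal lay -8.72, 14.5 and -5.79 millionths from the Col-0 mean in the Col-0 arrays of replicates 1, 2 and 3, at 5.83, 13.3 and -8.63 in the AtSPP-overexpressed arrays, and at 26.6, 23.5 and 12.9 in the knockdown arrays. The AtSPP-overexpressed and Col-0 arrays covered the same range, and knockdown replicate 3 lay below Col-0 replicate 2, so none of the groups stood apart. The difference from Col-0 was 3.50 millionths in the AtSPP-overexpressed lines (95% interval -16.3 to 23.3, adjusted p = 0.939) and 21.0 in the knockdown lines (1.23 to 40.8, adjusted p = 0.161). After quantile normalization the knockdown difference was -998 millionths and passed in the other direction (adjusted p = 0.00419), so that the direction of OS9 is not settled by these data. That setting called 4157 of all 22746 probe sets lower in the knockdown lines.

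UBC32 is a ubiquitin-conjugating enzyme anchored in the ER membrane, and it loads the ubiquitin that the ligases of ERAD transfer. In Col-0 its signal lay at -0.243, 2.18 and -1.94 millionths in replicates 1, 2 and 3, the narrowest Col-0 spread of the 6 genes. In the AtSPP-overexpressed lines it was -0.593, 15.9 and 8.72 millionths, so that replicate 1 was within the Col-0 range and the other 2 above it. The knockdown arrays had 17.5, 14.6 and 18.0 millionths, all above the highest Col-0 array. The difference between the knockdown lines and Col-0 was 16.7 millionths (95% interval 7.29 to 26.2), or 3.47 residual SDs, and it passed (adjusted p = 0.0379). In the AtSPP-overexpressed lines it was 7.99 millionths (-1.43 to 17.4, adjusted p = 0.484).

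EBS7 is a plant protein of the ER membrane that stabilizes the ERAD ligase Hrd1A. Its signal was -0.470, -2.46 and 2.93 millionths in Col-0, 2.45, 2.06 and 9.78 in the AtSPP-overexpressed arrays, and 3.73, 7.40 and 6.51 in the knockdown arrays. The knockdown arrays lay just above the highest Col-0 array, while AtSPP-overexpressed replicates 1 and 2 lay within the Col-0 range and replicate 3 was the highest of all 9. The knockdown difference was 5.88 millionths (95% interval -0.12 to 11.9, adjusted p = 0.196). It was negative after quantile normalization (-88.6, adjusted p = 0.0305), which called 4157 of all 22746 probe sets lower. The difference of the AtSPP-overexpressed lines was 4.77 millionths (-1.24 to 10.8, adjusted p = 0.518).

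Derlins are membrane proteins that help misfolded proteins through the ER membrane, and *A. thaliana* has a DER1 and a pair of DER2 genes. DER2.1 spread the most of the 6 genes, with 1042 millionths between the lowest and the highest array, and 3.93% of all probe sets had a larger SD over the 9 arrays. Its signal was -149, -142 and 291 millionths in Col-0 replicates 1, 2 and 3. The AtSPP-overexpressed arrays had 139.6, 508 and 254 millionths, and the knockdown arrays 520, 742 and 892. All knockdown arrays were above all arrays of both other groups, and Col-0 replicate 3 was above AtSPP-overexpressed replicates 1 and 3. DER2.1 was 718 millionths higher in the knockdown lines than in Col-0 (95% interval 324 to 1112), or 3.56 residual SDs, which passed (adjusted p = 0.0346), and by size the difference ranked 787th of the 22746 probe sets. In the AtSPP-overexpressed lines it was 300.3 millionths (-93.7 to 694, adjusted p = 0.54).

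DER2.2, the close relative of DER2.1, varied far less, over 43.1 millionths in all. In Col-0 it was at -14.1, -0.989 and 15.1 millionths, in the AtSPP-overexpressed arrays at 9.02, 18.5 and 28.4, and in the knockdown arrays at 29.1, 26.7 and 25.7. The knockdown arrays lay close together and above Col-0, but AtSPP-overexpressed replicate 3 fell among them. The knockdown difference of 27.1 millionths (95% interval 8.13 to 46.2, 2.79 residual SDs) did not pass (adjusted p = 0.0732), nor did the 18.7 millionths of the AtSPP-overexpressed lines (-0.358 to 37.7, adjusted p = 0.403). Without Col-0 replicate 3, the highest of its group for DER2.2, the knockdown difference was 34.7 millionths and passed (adjusted p = 0.0321).

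DER1 had its lowest and its second highest value both in Col-0, at -23.7, 3.52 and 20.1 millionths in replicates 1, 2 and 3. The AtSPP-overexpressed arrays lay between these at 12.5, 17.9 and 8.21 millionths, and the knockdown arrays had 10.3, -0.366 and 23.1. The 3 groups therefore overlapped throughout. The difference from Col-0 was 12.9 millionths in the AtSPP-overexpressed lines (95% interval -14.6 to 40.4, adjusted p = 0.757) and 11.0 in the knockdown lines (-16.5 to 38.5, adjusted p = 0.642), and without Col-0 replicate 1 the latter was -0.831. The Col-0 spread fell on the same arrays in several genes. Replicate 3 was the highest Col-0 array in 4 of the 6 genes (DER1, DER2.1, DER2.2 and EBS7), and replicate 1 was the lowest in 4 (DER1, DER2.1, DER2.2 and OS9). The share over all probe sets is not given here, so this describes the 6 genes only.

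**Figure D1:**
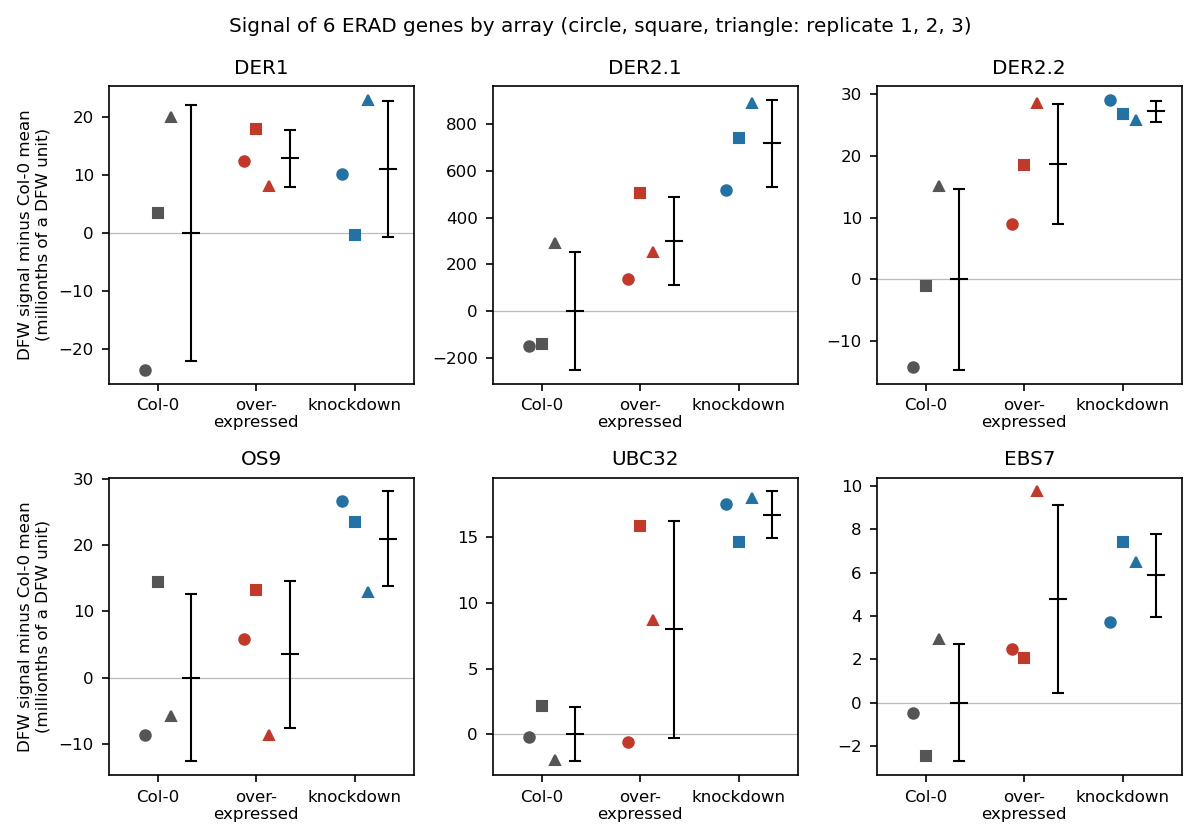
DFW signal of the 6 ERAD genes on each of the 9 arrays, as the distance from the Col-0 mean in millionths of a DFW unit, with a scale of its own for each gene. Circles, squares and triangles are replicates 1, 2 and 3, and the bars are the group mean ± SD (n = 3); the knockdown arrays stand above all Col-0 arrays in DER2.1, DER2.2, UBC32 and EBS7, and overlap them in DER1 and OS9, whereas centring on array medians put DER2.2, UBC32 and EBS7 lower in the knockdown lines, and quantile normalization put UBC32 and EBS7 lower. Of all probe sets, 14.9% had all knockdown arrays above all Col-0 arrays. Centring on array medians called 21996 of all 22746 probe sets lower in the knockdown lines.

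The comparison of the knockdown lines with Col-0 sets plants with an RNAi construct against AtSPP beside plants with no construct. An effect of less AtSPP and an effect of carrying a construct cannot be told apart in it. As deposited, all 6 genes were higher in the knockdown lines, where 43.8% of all probe sets were. DER2.1 and UBC32, 2 of the 6, passed, beside 6.56% of all probe sets that were called higher and 6.94% called lower (13.5% in all). An unadjusted p under 0.05 was found in 4 of the 6, all higher, and in 12.4% of all probe sets in that direction. In 4 of the 6 the knockdown arrays lay above all Col-0 arrays, beside 14.9% of all probe sets. The median of the 6 differences was 2.43 residual SDs, against -0.196 over all probe sets. An exact permutation test gave p = 0.1 (two-sided) for DER2.1, DER2.2, UBC32 and EBS7, the smallest that 3 arrays against 3 allow. The study used rank products to compare the AtSPP-overexpressed lines with Col-0. Written anew here, they called DER2.1 alone in the knockdown lines, with an estimated share of false calls of 0.0309. They called 2.38% of all probe sets higher. Rank products go by how large a difference is, and 29.1% of all probe sets had a larger difference than UBC32. After quantile normalization DER1, OS9, UBC32 and EBS7 had a difference below 0, and after centring on array medians all but DER2.1 did, since the median of the knockdown arrays was 552 millionths above that of Col-0, more than the difference of any gene here but DER2.1. Over the probe sets the median difference was -0.311 millionths, and centring on that kept both calls.

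The comparison of the AtSPP-overexpressed lines with Col-0 has the same limit for an excess of AtSPP. All 6 differences were above 0 as deposited, as were 53% of all probe sets, but none passed (lowest adjusted p = 0.403), none had an unadjusted p under 0.05 (7.06% of all probe sets were higher with one) and none was called by rank products (lowest estimated share of false calls 0.186, with 1.54% of all probe sets called higher). Limma called 0.299% of all probe sets higher in this comparison, and 0.545% in either direction. The groups overlapped in all 6 genes, and 9.71% of all probe sets stood apart and higher. The median of the 6 differences was 1.52 residual SDs, against 0.0712 over all probe sets. OS9, UBC32 and EBS7 turned negative after quantile normalization, and all but DER2.1 after centring on array medians. The median of the AtSPP-overexpressed arrays was 159 millionths above that of Col-0. This comparison shares its 3 Col-0 arrays with that of the knockdown lines, so the common direction of the 2 comparisons is not a separate result.

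Set directly against each other, the AtSPP-overexpressed and knockdown lines did not differ past the threshold in any of the 6 genes, beside 4.33% of all probe sets called, 2.07% lower and 2.26% higher in the AtSPP-overexpressed lines. DER2.1 came nearest, at -418 millionths (95% interval -812 to -23.9, unadjusted p = 0.0407, adjusted p = 0.232), and its AtSPP-overexpressed arrays all lay below the knockdown arrays, as they did for 10.3% of all probe sets. UBC32 differed by -8.73 millionths (-18.2 to 0.699, adjusted p = 0.296) and OS9 by -17.5 (-37.3 to 2.27, adjusted p = 0.316). For DER1, DER2.2 and EBS7 the difference was 1.90, -8.49 and -1.12 millionths, under 1 residual SD in each. A knockdown difference that passed and an AtSPP-overexpressed difference that did not are thus not shown to be unequal for DER2.1 or UBC32. In 5 of the 6 genes, all but DER1, the group means ran from the knockdown lines through the AtSPP-overexpressed lines down to Col-0, an order that 20.2% of all probe sets had and that DER2.1 alone kept after quantile normalization or after centring on array medians. Under the latter DER2.2, OS9, UBC32 and EBS7 ran the reverse way, and 5 genes, all but DER2.1, were called lower in the knockdown lines when these were set against the AtSPP-overexpressed lines. Centring so called 21862 of all 22746 probe sets in that same direction, so the count is no result about the 6 genes. AtSPP itself was highest in the AtSPP-overexpressed lines and lowest in the knockdown lines. As deposited, neighbouring groups in this order differed past the threshold in no gene.

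**Figure D2:**
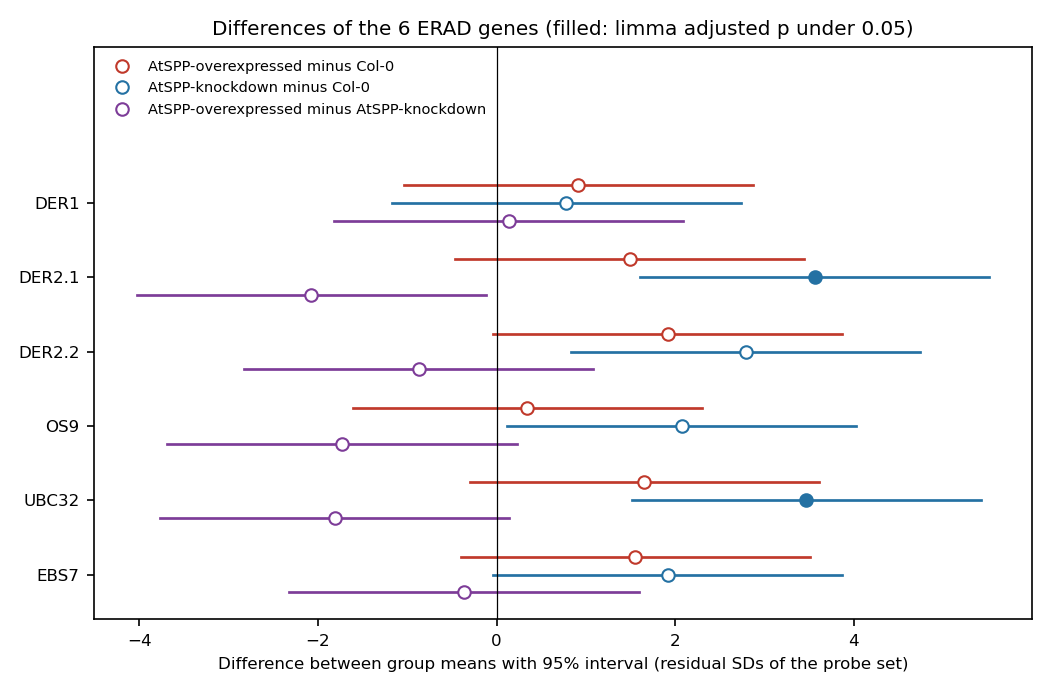
Differences between group means for the 6 ERAD genes in residual SDs of each probe set, with 95% intervals, for the 3 comparisons; filled points passed in limma at an adjusted p under 0.05. DER2.1 (3.56) and UBC32 (3.47, negative when arrays are quantile normalized or centred on their medians) in the knockdown lines are the filled points, and the intervals of the AtSPP-overexpressed lines against Col-0 all include 0. Limma called 6.56% of all probe sets higher in the knockdown lines and 0.299% in the AtSPP-overexpressed lines, each against Col-0.

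The 2 calls were then repeated under 18 other settings. DER2.1 was higher in the knockdown lines in all 18 and passed in 10 of them. It did not pass after quantile normalization (261 millionths, adjusted p = 0.466), after centring on array medians (166 millionths, adjusted p = 0.263), with the 6 arrays of the comparison alone (adjusted p = 0.0693), or without knockdown replicate 2 (0.0976) or 3 (0.111), Col-0 replicate 1 (0.106) or 2 (0.105), or AtSPP-overexpressed replicate 3 (0.0564). UBC32 passed in the same direction in 6 settings. Its difference hardly changed when an array was left out, from 15.8 to 17.8 millionths, but its adjusted p rose to between 0.0614 and 0.118 without any one of the knockdown or Col-0 arrays or AtSPP-overexpressed replicate 3, and was 0.052 with an intensity trend and 0.0746 under a replicate block. With the 6 arrays alone it was lower, at 0.01.

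**Figure D3:**
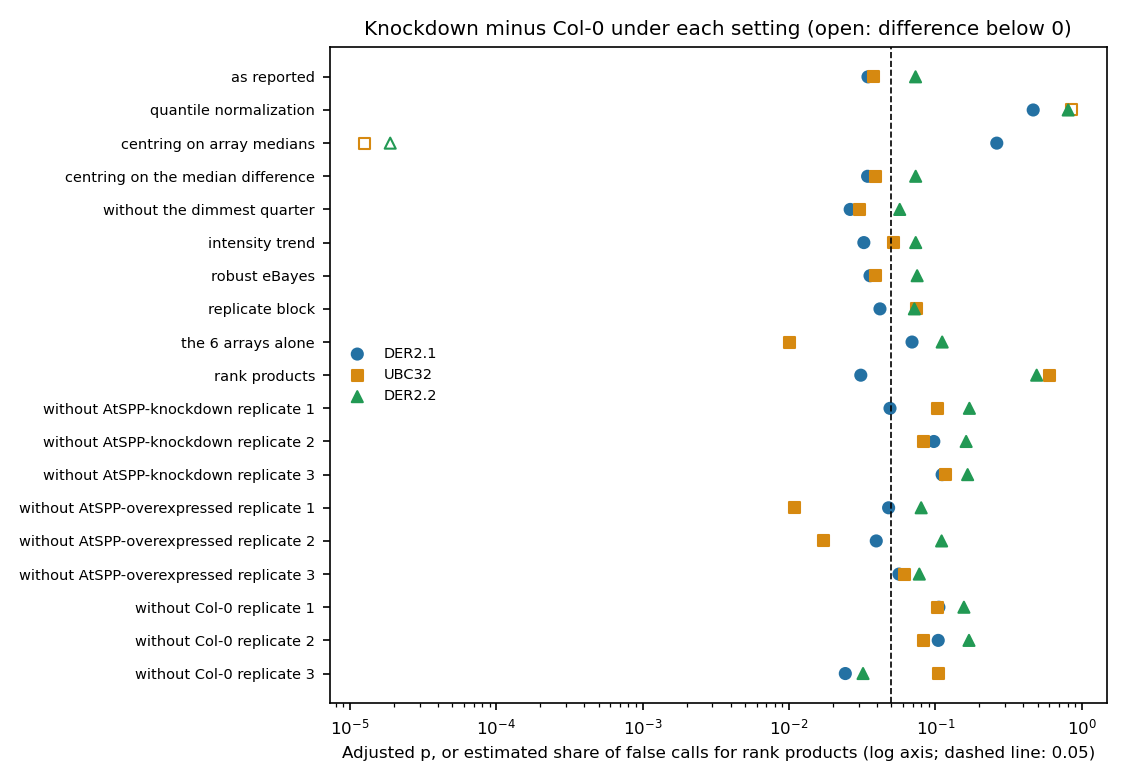
Adjusted p, or for rank products the estimated share of false calls, of the difference between knockdown lines and Col-0 under each setting, on a log axis with the threshold of 0.05 as a dashed line. Circles are DER2.1, squares UBC32 and triangles DER2.2, and open symbols mark a difference below 0: DER2.1 (circles) has none, UBC32 has 2 (quantile normalization and centring on array medians) and DER2.2 has 1 (centring on array medians).

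DER1 has another probe set, which was not among the 6. It barely moved, over 2.69 millionths in all, and 88.1% of all probe sets had a larger SD. Its values were -0.483, -0.0497 and 0.532 millionths in Col-0, 2.21, 0.355 and 1.37 in the AtSPP-overexpressed arrays, and 0.222, 0.669 and -0.247 in the knockdown arrays. It did not pass in the knockdown lines (0.215 millionths, adjusted p = 0.909) or in the AtSPP-overexpressed lines (1.31 millionths, adjusted p = 0.526), and so neither probe set of DER1 gave a call.

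Of the 35 other loci listed for ERAD, 6 were measured by a probe set paired with 1 gene, and of 13 proteasome subunits 1, RPN12a. Of these 7 only ERDJ3B passed, and only in the comparison of the knockdown lines with Col-0. There 13.5% of all probe sets were called, 6.94% of all as lower, so 1 call among 7 is near the share over all probe sets. ERDJ3B, a chaperone of the ER lumen that works with BiP on misfolded proteins, was lower in the knockdown lines, with a difference of -84.8 millionths (95% interval -121.5 to -48.0, adjusted p = 0.0162). It was lower there under all 18 settings. The 6 genes above were higher as deposited, 4 of them without passing, but after centring on array medians all of them but DER2.1 were lower, as ERDJ3B was (-637 millionths), and after quantile normalization DER1, OS9, UBC32 and EBS7 were. Centring called 21996 of all 22746 probe sets lower, so a direction shared under it is not particular to these genes. Its signal was 26.3, -4.52 and -21.8 millionths in Col-0, -26.3, -64.3 and -37.4 in the AtSPP-overexpressed arrays, and -69.0, -94.8 and -90.4 in the knockdown arrays. The 3 groups of arrays did not overlap, with Col-0 at the top and the knockdown lines at the bottom. The share of all probe sets with that order is not given here. The AtSPP-overexpressed difference of -42.7 millionths did not pass (adjusted p = 0.311). The knockdown call was lost without knockdown replicate 2 (adjusted p = 0.0565) or 3 (0.0621), and by rank products (0.199).

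AT4G10790, from the list of extraction and delivery to the proteasome, had the largest knockdown difference in DFW units of the other 6. Its signal was -100.2, 36.7 and 63.5 millionths in Col-0, 169, 157 and 4.66 in the AtSPP-overexpressed arrays, and 131.5, 129 and 176.5 in the knockdown arrays. All knockdown arrays lay above Col-0, and AtSPP-overexpressed replicate 3 lay within the Col-0 range. The difference of 146 millionths did not pass (95% interval 6.01 to 285, adjusted p = 0.169). The remaining 3 loci of that list (AT4G38930, AT2G29070 and AT2G47970), AT1G73570 from the list of ubiquitin ligase complexes, and RPN12a had knockdown differences from -3.09 to 29.3 millionths, with adjusted p from 0.452 to 0.828. The median knockdown difference of the 6 other ERAD loci was -0.473 residual SDs, near the -0.196 of all probe sets. The remaining loci of the lists, which have no probe set paired with 1 gene in the annotation used, were not analysed here.

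**Figure D4:**
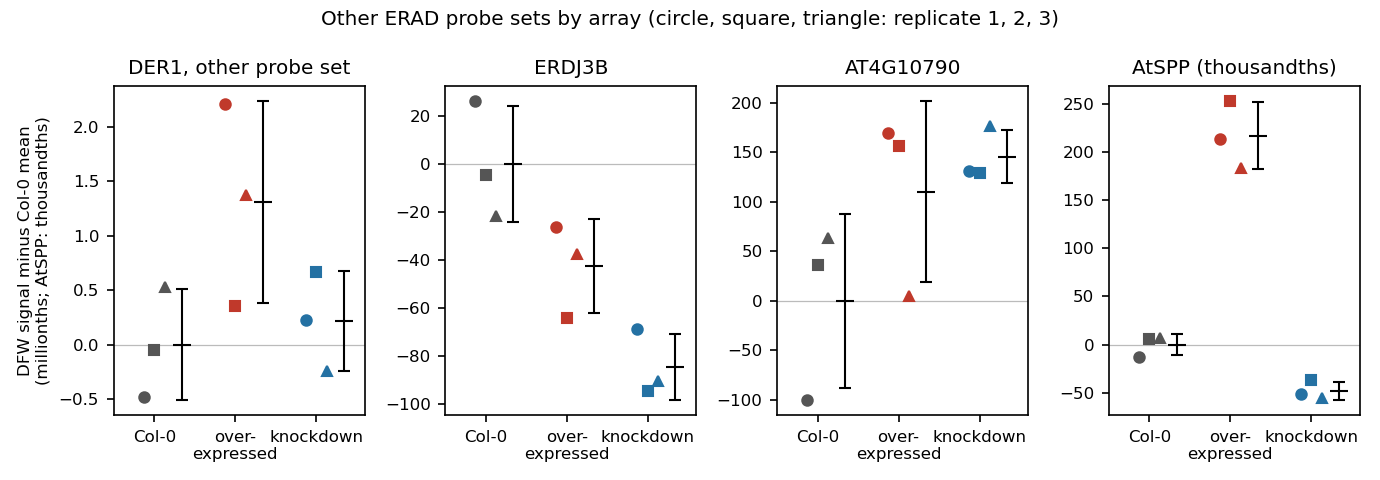
DFW signal on each of the 9 arrays for the other probe set of DER1, for ERDJ3B, for AT4G10790 and for AtSPP, as the distance from the Col-0 mean in millionths of a DFW unit, or in thousandths for AtSPP. Symbols and bars are as in the plot of the 6 genes (mean ± SD, n = 3); ERDJ3B falls from Col-0 to the knockdown lines, where its difference is -84.8 millionths, and AtSPP is the only panel in which the means of the 2 transgenic groups lie on opposite sides of Col-0.

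The probe sets most like each gene over the 9 arrays were taken by Pearson's r among the 13512 others paired with 1 gene, as a description. For DER2.1 these were AT5G13240 (r = 0.987, Spearman's rho = 0.95), AT1G34300 (r = 0.982) and AT5G46630, which encodes AP2M, the mu subunit of the clathrin adaptor AP-2 (r = 0.981). For UBC32 they were AT5G12420 (r = 0.973), AT3G57340 (r = 0.97) and AT1G63880 (r = 0.958). For DER2.2 they were AT3G18930, AT2G18750 and AT5G63200 (r = 0.98 to 0.96), for EBS7 AT3G02700, AT2G07320 and AT1G51200 (r = 0.974 to 0.942), for DER1 AT1G62422, AT4G28260 and AT1G68580 (r = 0.962 to 0.948), and for OS9 AT5G54540, AT3G16940 and AT2G40600 (r = 0.947 to 0.934). No gene of the ERAD lists was among these 18. The 9 points share their group differences and their normalization, and among so many candidates a high r is to be had for any gene.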

How the data were processed

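Values of 9 Affymetrix ATH1 arrays were used, 3 for each group of the labels. As deposited by the authors, each probe set has a single DFW-normalized value per array, made in R and treated here as a log2 value. The sources used here give neither the log base nor the software version nor any background correction. The 64 control probe sets were left out. Probe sets were named through the platform annotation (13513 with 1 gene, 503 with several, 8730 not listed) and the RefSeq gene table of TAIR10.1, which 13436 of the 13513 matched. Identical values between any 2 arrays numbered at most 7. How far signals stood above background is unknown. Precision is limited by the array number.

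Groups were compared with limma 3.58.1 in R 4.3.3 (lmFit and eBayes, the 9 arrays in 1 fit, 6 residual degrees of freedom), two-sided, with Benjamini-Hochberg adjustment over all 22746 probe sets and a threshold of 0.05. Intervals are 95% and unadjusted. Single values were also given an exact permutation test. Rank products were written after the published definition, with 100 permutations within arrays. Limma and rank products were tested on simulated data. The alternatives were quantile normalization, array-median centring, a filter on the dimmest 25% of probe sets, an intensity trend, robust eBayes, a replicate block, the 6 arrays alone, rank products and leaving out each array. A further alternative, chosen after seeing the data, centred each array on its median difference from the mean of all arrays.

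The members and gene lists were chosen with earlier results of these data known. Named beside the 6 members are AtSPP, the measured loci of the lists (values for those that passed, with AT4G10790 chosen after its values were seen) and the 3 probe sets most like each member.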

Additional observations from a re-analysis of the deposited data

Results flagged for a closer look

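None of the 6 ERAD genes met a rule for a closer look, and groups of 3 arrays are too small for a test of single outlying arrays. AtSPP and LHCB4.2, used as checks of the labels and of the tissue, differed between the 2 kinds of line (AtSPP-overexpressed minus knockdown) when that difference itself was tested, AtSPP by 264600 millionths (adjusted p = 0.00183) and LHCB4.2 by -11520 millionths (adjusted p = 0.00214).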

How the results depend on the processing

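Differences are in millionths of a DFW unit. Leaving out 1 array left 0 to 2 of the 6 genes called in the knockdown lines (DER2.1 from 631 to 864, UBC32 from 15.8 to 17.8), and none in the other comparisons. Over all probe sets the calls without 1 array ran from 5 to 51 against 124 in the AtSPP-overexpressed lines, from 1540 to 2917 against 3072 in the knockdown lines, and from 343 to 923 against 986 between the lines. A single gene was called in the knockdown lines with an intensity trend, with the replicate block, with the 6 arrays alone and by rank products (UBC32 at 16.7 not passing in the trend, block and rank products, DER2.1 at 718 not passing in the 6 arrays). Centring on array medians called 5 genes, all lower, in the knockdown lines, and 5, all higher, in the AtSPP-overexpressed lines against the knockdown lines. Under it nearly all probe sets shifted, by its construction, since the array medians differ. Calls over all probe sets were 2625, 6917 and 2379 after quantile normalization and 354, 22376 and 22155 after centring on array medians for the AtSPP-overexpressed lines, the knockdown lines and their difference. Rank products gave 643 and 1070 for the first 2 comparisons, and the 6 arrays alone 0 and 428 for the first and the third. Of probe sets called in the direct comparison, 1963 of 2379 were higher after quantile normalization and 515 of 986 as deposited. Differences that turned sign in the AtSPP-overexpressed lines were OS9 -618, UBC32 -129.6 and EBS7 -59.1 after quantile normalization, and DER1 -146, DER2.2 -140.1, OS9 -155, UBC32 -151 and EBS7 -154 after centring on array medians. In the knockdown lines they were DER1 -30.6, OS9 -998, UBC32 -61.9 and EBS7 -88.6 after quantile normalization, where DER2.1 was 261, and DER1 -541, DER2.2 -525, OS9 -531, UBC32 -535.5 and EBS7 -546 after centring on array medians, where DER2.1 was 166. Between the lines they were DER2.2 115, OS9 379 and EBS7 29.6 after quantile normalization, and DER2.2 385, OS9 376, UBC32 385 and EBS7 392.3 after centring on array medians. Leaving out 1 array turned OS9 in the AtSPP-overexpressed lines (range -1.40 to 10.8, below 0 without AtSPP-overexpressed replicate 2 and, at -0.86, without Col-0 replicate 1), DER1 in the knockdown lines (range -0.831 to 21.1, below 0 without Col-0 replicate 1), and, between the lines, DER1 (range -3.79 to 7.94, below 0 without knockdown replicate 2 and, at -0.627, without AtSPP-overexpressed replicate 2) and EBS7 (range -3.62 to 0.234, above 0 without AtSPP-overexpressed replicate 2 and, at 0.0385, without replicate 1). The changes of sign after centring on array medians followed from the differing array medians. The cause of the other changes was not tested. The replicate numbers are shared between groups but nothing ties them to a day or batch, and the deviations of same-numbered arrays correlated from -0.138 to 0.208, so they were not taken as pairs. With the replicate number as a block the calls over all probe sets were 2 in the AtSPP-overexpressed lines and 590 between the lines, and the adjusted p of UBC32 in the knockdown lines was 0.0746. Centring on the median difference, chosen after seeing the data, changed no call of the 6 genes.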
